A study of Mus musculus with 20 samples.

Results

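The 39 genes described here drive or mark cell division. They were taken by symbol from a table of 35841 genes, in which each symbol matched 1 row. They fall into 6 role groups: E2F1 and the E-type cyclins (3 genes), origin licensing and the MCM helicase (8 genes), the replication clamp and nucleotide supply (5 genes), mitotic cyclins and kinases (7 genes), the spindle checkpoint, kinetochore and anaphase trigger (7 genes), and chromosomes, spindle and cytokinesis (9 genes). The first 3 groups are called replication genes below (16 genes) and the last 3 mitotic genes (23 genes). The question was how much of their level in a fat pad followed the amount of lymph node RNA in the library and how much followed the stage of the estrous cycle.

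RNA-seq was run on the inguinal subcutaneous fat of 20 female C57BL/6 mice, an inbred laboratory strain, all 8 weeks old and untreated. The groups were proestrus, estrus, metestrus and diestrus, with 5 mice in each and 1 library per mouse. Stages had been assigned from vaginal smears together with serum hormones. The smears were taken daily over consecutive cycles, but each pad was taken once. Its RNA is thus a reading at 1 time, and the stages compare different mice. Whole pads were extracted, so every value is a mixture of adipocytes, mammary epithelium, vessels and immune cells.

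In a dividing cell, E2F transcription factors switch on the genes of DNA synthesis. The MCM helicase is loaded at origins by Cdc6 and Cdt1 and then unwinds DNA, PCNA clamps the polymerases to it, and ribonucleotide reductase and thymidylate synthase supply the building blocks. Later, Cdk1 with cyclin B brings the cell into mitosis, kinesins and Aurora kinases build the spindle, and Cdc20 with Ube2c lets the anaphase-promoting complex destroy cyclin B. Adult fat holds few dividing cells. The mouse inguinal pad also carries a lymph node, in which lymphocytes divide, above all B cells in germinal centres.

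The libraries differed in ways that bear on these genes. FPKM, the fragments per kilobase of gene scaled to the size of the library, summed to 373659 to 452647 per library. Read counts were not used, and ratios of low values placed the libraries at 0.944 to 1.25 times the depth of the median library. The labelled tissue was checked by 8 adipocyte genes, all detected, whose mean log2(FPKM + 1) was 8.30 to 9.22 in the 20 libraries. The RNA of proestrus-2 came from another portion of the pad after the original extract was of low quality. Metestrus-3 stood apart by skeletal muscle genes, at a mean log2(FPKM + 1) of 9.87 where the median library had 1.48. Counts that lead the text were rerun without these 2 libraries.

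All 39 genes were above 0 in all 20 libraries, at low levels. Mean FPKM over the libraries ran from 23.1 for Pcna, the clamp, and 7.11 for Mcm6, a helicase subunit, down to 0.345 for the licensing factor Cdc6 and 0.285 for Cenpf, a kinetochore protein. Because FPKM is per length, these levels can be compared between genes. The ratio of the highest to the lowest library was 1.84 for Rrm1, the large subunit of ribonucleotide reductase, and 73.9 for Hmmr, a spindle protein that was at 0.0311 FPKM in its lowest library. Replication genes varied less than mitotic genes, with highest ratios of 6.10, 5.35 and 6.51 in their 3 groups against 12.3, 20.1 and 73.9 in the mitotic groups. The same libraries held the extremes of many genes. Metestrus-2 was the highest library for 28 of the 39 genes and diestrus-5 the lowest for 17. The same count over all genes was not made. The median ratio of a library's genes to their geometric mean over the libraries was 1.12 in metestrus-2, the highest of the 20. It was 0.955 in diestrus-5, and its part in these counts was not tested.

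Promoters are shown for the 4 MCM genes whose values are given in every library below and for the 3 genes with the smallest p among stages, all mitotic. Each window of 300 bases covers 250 before and 50 after a start site in RefSeq (GRCm38.p6), and is written 5′ to 3′ on the strand of the gene. Capitals mark matches, on either strand, to the CHR element (TTTGAA), the CCAAT box (CCAAT) and the E2F site (TTTCCCGC, TTTCGCGC, TTTGCCGC or TTTGGCGC). The CHR and CCAAT box are known from mitotic promoters and the E2F site from promoters of DNA synthesis genes.

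Mcm5 (chr8:75109259-75109558, + strand): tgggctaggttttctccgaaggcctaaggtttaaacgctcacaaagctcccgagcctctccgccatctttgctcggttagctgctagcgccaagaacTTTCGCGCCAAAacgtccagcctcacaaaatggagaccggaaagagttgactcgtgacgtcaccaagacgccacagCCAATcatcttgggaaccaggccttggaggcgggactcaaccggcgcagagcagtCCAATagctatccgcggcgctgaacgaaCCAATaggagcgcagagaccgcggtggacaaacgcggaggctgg
Mcm3 (chr1:20820263-20820562, - strand): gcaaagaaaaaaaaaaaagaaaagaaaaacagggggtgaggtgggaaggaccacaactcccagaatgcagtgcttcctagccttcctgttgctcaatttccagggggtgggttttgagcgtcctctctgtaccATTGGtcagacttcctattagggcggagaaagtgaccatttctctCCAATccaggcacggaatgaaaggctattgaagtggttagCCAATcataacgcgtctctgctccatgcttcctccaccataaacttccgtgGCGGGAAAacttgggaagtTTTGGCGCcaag
Mcm6 (chr1:128359656-128359955, - strand): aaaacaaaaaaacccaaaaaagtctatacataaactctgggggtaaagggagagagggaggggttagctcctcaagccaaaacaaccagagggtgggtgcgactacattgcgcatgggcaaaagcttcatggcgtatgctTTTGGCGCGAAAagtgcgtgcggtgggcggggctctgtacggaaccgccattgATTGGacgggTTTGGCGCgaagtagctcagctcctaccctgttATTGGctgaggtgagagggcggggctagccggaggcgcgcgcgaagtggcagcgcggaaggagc
Mcm2 (chr6:88898731-88899030, - strand): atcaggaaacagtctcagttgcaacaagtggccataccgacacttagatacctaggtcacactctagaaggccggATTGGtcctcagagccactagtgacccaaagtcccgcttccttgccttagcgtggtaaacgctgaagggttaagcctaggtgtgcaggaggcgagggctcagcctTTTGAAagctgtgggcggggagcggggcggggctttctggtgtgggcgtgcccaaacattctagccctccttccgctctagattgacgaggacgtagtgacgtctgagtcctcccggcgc
Ube2c (chr2:164769679-164769978, + strand): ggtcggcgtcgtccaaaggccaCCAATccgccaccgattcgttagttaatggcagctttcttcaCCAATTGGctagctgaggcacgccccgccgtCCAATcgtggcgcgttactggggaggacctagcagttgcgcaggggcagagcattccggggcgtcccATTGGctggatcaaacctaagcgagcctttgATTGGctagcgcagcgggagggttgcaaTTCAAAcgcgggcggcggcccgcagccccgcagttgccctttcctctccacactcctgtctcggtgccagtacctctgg
Cdc20 (chr4:118437294-118437593, - strand): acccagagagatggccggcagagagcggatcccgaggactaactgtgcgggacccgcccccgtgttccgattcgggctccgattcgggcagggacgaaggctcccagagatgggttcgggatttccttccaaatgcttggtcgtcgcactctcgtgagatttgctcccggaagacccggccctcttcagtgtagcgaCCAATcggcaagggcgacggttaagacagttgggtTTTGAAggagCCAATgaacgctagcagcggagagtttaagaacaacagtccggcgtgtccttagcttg
Ccnb2 (chr9:70421505-70421804, - strand): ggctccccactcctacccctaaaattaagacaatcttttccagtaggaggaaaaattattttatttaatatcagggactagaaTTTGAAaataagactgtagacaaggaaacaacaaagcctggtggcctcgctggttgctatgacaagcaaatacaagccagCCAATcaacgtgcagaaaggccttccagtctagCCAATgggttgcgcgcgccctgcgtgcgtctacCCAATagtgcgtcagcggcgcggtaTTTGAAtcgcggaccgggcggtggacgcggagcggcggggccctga

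Of the 4 MCM promoters, those of Mcm5, Mcm3 and Mcm6 held E2F matches and no CHR, whereas that of Mcm2 held a CHR and a CCAAT box and no E2F match. Each of the 3 mitotic promoters held a CHR and CCAAT boxes and no E2F match. In Mcm5 and Mcm6, E2F matches on opposite strands overlap, and in Ube2c CCAAT boxes on opposite strands overlap in CCAATTGG. Promoters were found for 33 of the 39 genes, in 35 windows, and not for Ccna2, Tpx2, Ccne2, Aurkb, Mcm4 and Kif20a. An E2F match stood in 6 of 15 replication windows (40%), all of them among the 8 windows of the licensing and MCM genes, in 1 of 20 mitotic windows (5%) and in 2.26% of all 32851 promoter windows. A CHR stood in 15 of 20 mitotic windows (75%), in 1 of 15 replication windows (6.67%), that of Mcm2, and in 17.9% of all windows. CHR and CCAAT box together stood in 15 of 20 mitotic windows (75%) and in 6.95% of all windows. The windows of E2f1, Cdc6 and Mcm7 lie wholly inside the gene as placed by GENCODE M21. They do not cover the bases before that gene start, so a match there would not have been counted. These letters describe the windows and do not show binding.

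Lymph node content was read from 15 lymphocyte genes, 7 of B cells and 8 of T cells, none of them among the 39. Their mean log2(FPKM + 1), the lymphocyte score, ran from 0.23 in metestrus-4 to 4.56 in estrus-3. Its largest gap lay between 8 libraries at 0.23 to 1.63 (1 proestrus, 3 estrus, 2 metestrus and 2 diestrus) and 12 libraries at 2.46 to 4.56 (4 proestrus, 2 estrus, 3 metestrus and 3 diestrus). Mean log2(FPKM + 1) of the 39 genes was 0.84 to 1.20 in the 8 low libraries, with a median of 1.02, and 1.02 to 1.96 in the 12 others, with a median of 1.45. The score overlapped among the stages, at 0.25 to 4.01 in proestrus, 0.23 to 4.56 in estrus, 0.23 to 4.02 in metestrus and 0.43 to 3.94 in diestrus. In bulk RNA, more dividing cells and more RNA of these genes per cell cannot be told apart. Because the libraries fall into 2 sets, no correlation across all 20 is given, and the slopes below were fitted within stages and then checked on either side of the gap.

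**Figure D1:**
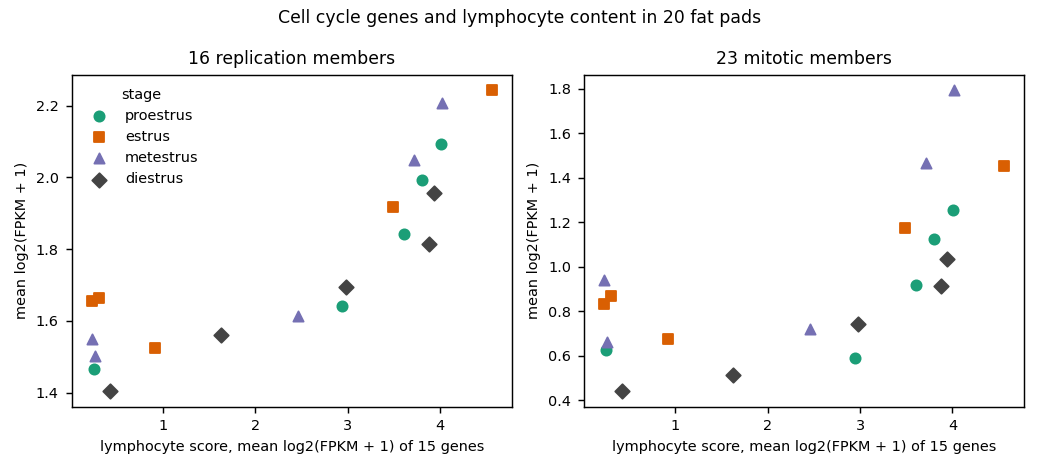
Mean log2(FPKM + 1) of the 16 replication genes (left) and the 23 mitotic genes (right) against the lymphocyte score, the mean log2(FPKM + 1) of 15 lymphocyte genes. Each point is 1 library, with its shape and colour giving the stage. Both sets were nearly flat at low scores and climbed above a score of about 3, and the highest mitotic value was that of metestrus-2.

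Gene positions below are those of GENCODE M21 on GRCm38, the mouse build the submitters name. Tests used limma on log2(FPKM + 1), with p-values adjusted by Benjamini-Hochberg over all 13987 genes that reached 1 FPKM in 5 or more libraries. Of the 39 genes, 30 passed this filter. The other 9 were Cdc6, Ccnb1, Aurkb, Bub1, Cenpe, Cenpf, Kif23, Prc1 and Hmmr, and these were tested at a looser filter of 0.1 FPKM, which kept 21806 genes and all 39. A difference on this scale understates the change of low genes, and most of these genes are low.

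Within stages, 28 of the 30 genes tested rose with the lymphocyte score and none fell, where 19.8% of all genes rose and 9.34% fell. Their median slope was 0.17 in log2(FPKM + 1) per unit of score, beside 0.0095 over all genes tested. The 2 exceptions were E2f1 (slope -0.011, limma adjusted p = 0.799) and Ccne2, an E-type cyclin (0.034, adjusted p = 0.50). Among those that rose, Plk1, Kif20a, Birc5, Tpx2, Kif11, Cdt1 and Tk1 reached 1 FPKM only in libraries above the gap in the score. They thus passed the filter only through lymphocyte-rich libraries, and their calls are weaker support. At the looser filter 35 of 39 rose, where 17.2% of all genes did, and Cdc6 and Prc1 joined the exceptions. Without proestrus-2 and metestrus-3, 26 of 30 rose, beside 22.1% of all genes.

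The slopes were also fitted on either side of the gap in the score. In the 12 libraries above the gap 25 of 30 genes rose, where 32.2% of all genes did, at a median slope of 0.45. In the 8 libraries below the gap, a fit in limma that called 0% of all genes, 0 of the 11 genes tested were called, and 0 were under an unadjusted p of 0.05, beside 1.71% of all genes. The median slope of these 11 was 0.063 there and 0.42 above the gap, where 10 of them were steeper. With a score taken on the linear scale of FPKM, or with the square of the score added, 28 of 30 genes rose, beside 24.5% and 29% of all genes. With a score of 8 germinal centre B cell genes put beside the lymphocyte score, 0 of 30 slopes on the lymphocyte score and 0 of 30 on the germinal centre score passed in limma, beside 0.772% and 0% of all genes. At an unadjusted p under 0.05 there were 1 and 9 that rose, beside 3.98% and 17.4% of all genes, and the germinal centre slope was positive for 28 of the 30. The lymphocyte slope was then positive for 11 of the 30, against 29 without that score, and its median went from 0.17 to -0.034. Both scores were highest in estrus-3, and which of them the genes followed cannot be told apart.

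Among the G1 to S regulators, E2f1, the transcription factor at the head of the pathway, did not follow the score. E2f1 (ENSMUSG00000027490, chr2:154559407-154569892) was at 1.45, 1.69, 1.61, 1.51 and 2.14 FPKM in proestrus-1 to -5, at 3.31, 1.99, 1.62, 2.09 and 1.66 in estrus, at 1.60, 1.95, 1.81, 1.48 and 1.84 in metestrus and at 1.5, 1.40, 1.73, 1.55 and 1.24 in diestrus. Estrus-1 stood above all other libraries, with nearly no lymphocyte RNA, and the stages overlapped otherwise. Ccne1, the other E-type cyclin, rose with the score by 0.14 per unit (SE 0.028, limma adjusted p = 0.00090). It was also the only one of the 30 that was higher in diestrus than in metestrus at equal score, by 0.23 (SE 0.12, adjusted p = 0.404), which did not pass.

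The licensing and MCM genes followed the score most closely. All 7 tested rose with it, with slopes of 0.097 for Mcm7 to 0.31 for Mcm5, and none was called among stages. Mcm6 (ENSMUSG00000026355, chr1:128331590-128359664) was at 7.91, 4.56, 7.86, 5.65 and 8.23 FPKM in proestrus-1 to -5, at 5.81, 5.12, 12.2, 7.01 and 8.73 in estrus, at 5.73, 12.5, 4.49, 5.98 and 9.0 in metestrus and at 5.97, 4.49, 8.83, 7.93 and 4.13 in diestrus. Its highest libraries, metestrus-2 and estrus-3, were also the 2 with the highest lymphocyte scores, and all stages overlapped. The slope of Mcm6 was 0.22 (SE 0.028, limma adjusted p = 5.39e-06).

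Mcm5 had the steepest slope of the 30 in the main fit. Mki67 and Top2a, both of the spindle group, were steeper with the score on the linear scale (0.586 and 0.549 against 0.530). They were also steeper with the square of the score added (0.399 and 0.366 against 0.335). Mcm5 (ENSMUSG00000005410, chr8:75109569-75128439) was at 3.66, 1.20, 4.03, 2.25 and 3.72 FPKM in proestrus-1 to -5, at 1.48, 0.943, 4.88, 1.86 and 3.27 in estrus, at 2.25, 5.05, 0.974, 1.56 and 4.35 in metestrus and at 2.54, 1.96, 3.52, 3.08 and 1.09 in diestrus. Each of the 12 libraries above the gap in the score had more Mcm5 than each of the 8 below it. Its slope was 0.31 (SE 0.029, limma adjusted p = 8.33e-08), and diestrus differed from metestrus at equal score by -0.22 (SE 0.13, adjusted p = 0.454).

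Mcm3 (ENSMUSG00000041859, chr1:20802968-20820312) was at 4.20, 2.11, 3.53, 3.74 and 4.44 FPKM in proestrus-1 to -5, at 2.98, 2.55, 5.04, 2.31 and 3.81 in estrus, at 3.95, 4.94, 2.37, 2.30 and 5.76 in metestrus and at 3.77, 2.90, 4.51, 3.97 and 1.80 in diestrus. As with Mcm5, all 12 libraries above the gap exceeded the 8 below it, and the slope was 0.21 (SE 0.020, limma adjusted p = 1.08e-07). Mcm2 (ENSMUSG00000002870, chr6:88883474-88898780) was at 2.11, 0.940, 1.77, 1.31 and 2.36 FPKM in proestrus-1 to -5, at 1.17, 0.642, 2.82, 1.03 and 1.59 in estrus, at 1.20, 2.36, 0.831, 0.951 and 2.21 in metestrus and at 1.26, 1.01, 2.0, 1.72 and 0.679 in diestrus. Its 12 libraries above the gap again exceeded the 8 below it, and the slope was 0.20 (SE 0.025, limma adjusted p = 3.41e-06). Of the others, Cdt1, which loads the helicase, rose by 0.17 per unit, Mcm4 by 0.14 and Mcm7 by 0.097.

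The clamp and nucleotide genes did much the same, and all 5 rose with the score. Pcna (ENSMUSG00000027342, chr2:132249162-132253314) was at 26.8, 17.0, 25.2, 22 and 30.6 FPKM in proestrus-1 to -5, at 19.2, 21.8, 29.8, 20.5 and 24.4 in estrus, at 19.7, 35.0, 15.3, 21.1 and 28 in metestrus and at 18.4, 18.3, 27.9, 23.3 and 18.2 in diestrus. Metestrus-2 was highest and the muscle-rich metestrus-3 lowest, and all stages overlapped. The slope of Pcna was 0.16 (SE 0.026, limma adjusted p = 9.42e-05). Its pseudogene Pcna-ps2 had a mean of 5.01 FPKM in the table, and how reads were divided between the 2 is not known. Rrm2, the S-phase subunit of ribonucleotide reductase, rose by 0.26 per unit, Tk1 (thymidine kinase) by 0.16, Rrm1 by 0.095 and Tyms (thymidylate synthase) by 0.071.

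Of the mitotic genes, all 15 tested rose with the score, at slopes of 0.071 for Aurka (Aurora kinase A) to 0.30 for Mki67, and 4 were called between stages. Ccna2 (ENSMUSG00000027715, chr3:36564865-36572150), cyclin A2, was at 2.07, 0.791, 1.55, 0.987 and 2.68 FPKM in proestrus-1 to -5, at 1.12, 0.867, 2.70, 1.26 and 2.08 in estrus, at 1.03, 4.55, 0.806, 1.26 and 3.16 in metestrus and at 1.11, 0.598, 1.64, 1.46 and 0.537 in diestrus. Diestrus had no library above 1.64, but the stages overlapped. The slope was 0.24 (SE 0.038, limma adjusted p = 5.40e-05), and at equal score diestrus was below metestrus by 0.61 (SE 0.17, adjusted p = 0.0544), just outside the threshold.

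Mki67 (ENSMUSG00000031004, chr7:135689784-135716361), the gene of the proliferation antigen Ki-67, was at 2.90, 1.25, 1.49, 0.661 and 3.36 FPKM in proestrus-1 to -5, at 1.78, 0.760, 5.26, 1.83 and 2.63 in estrus, at 1.01, 6.29, 1.0, 1.51 and 3.49 in metestrus and at 1.18, 0.701, 2.49, 2.62 and 0.418 in diestrus. It spanned a 15.1-fold range, with metestrus-2 and estrus-3 highest and diestrus-5 lowest, and the stages overlapped. The slope of 0.30 (SE 0.059) passed in limma with an adjusted p of 0.00067. The difference of diestrus from metestrus at equal score, -0.60 (SE 0.26, adjusted p = 0.259), did not.

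**Figure D2:**
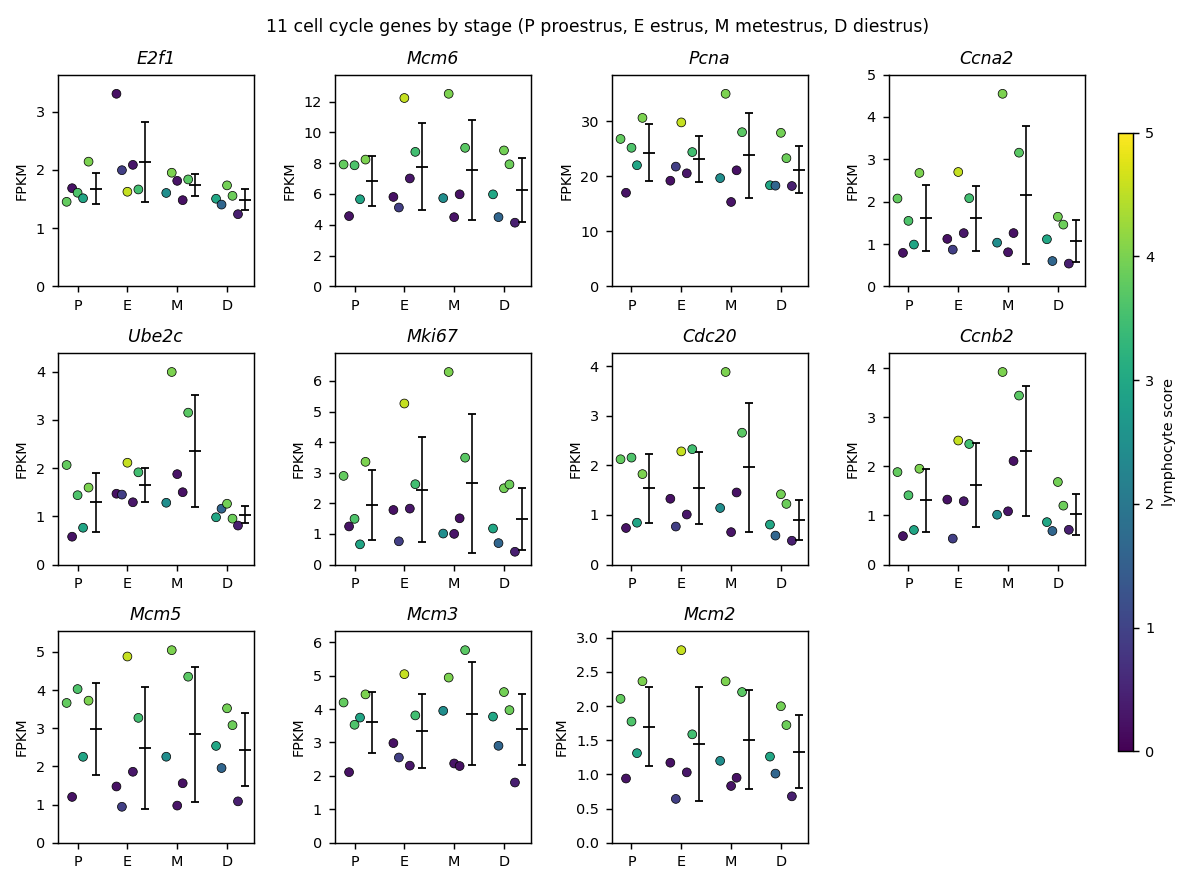
FPKM of 11 genes in each of the 20 libraries, by stage (P proestrus, E estrus, M metestrus, D diestrus), with the point colour giving the lymphocyte score and bars the mean and SD of 5 libraries. Within a stage the light points, rich in lymphocyte RNA, lie above the dark ones for Mcm2, Mcm3 and Mcm5. The same holds for Mcm6 and Pcna, except that metestrus-1 lies below metestrus-4. E2f1 was highest in the dark point of estrus-1 at 3.31 FPKM.

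Before the score was taken into account, none of the 30 genes passed limma's F test among the 4 stages, where 0.736% of all genes did, and none in any of the 6 pairs of stages, where 1.7% of all genes did in some pair. The smallest adjusted p was 0.332. At an unadjusted p under 0.05 there was 1 of the 30, Ube2c, beside 10.7% of all genes, and in the pairs 3 were lower in diestrus than in metestrus, 1 lower in diestrus than in estrus and 1 higher in metestrus than in proestrus, beside 6.64%, 3.68% and 6.31% of all genes.

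With the score in the model, few genes were called between stages. By the F test 1 of 30 genes passed, Ube2c (adjusted p = 0.0392), where 1.6% of all genes did, and 16 of 30 were under an unadjusted p of 0.05, where 14.1% of all genes were. With 1 library left out, the F test called none of the 30 in 15 of 20 fits, the exceptions being those without proestrus-1, estrus-1, metestrus-1, diestrus-2 or diestrus-3. The pair with the most calls was diestrus and metestrus. There 4 genes were lower in diestrus, where 1.71% of all genes were. They were Ube2c, Cdc20, Ccnb2 and Kif20a, all mitotic, and also the only genes of the 30 called in any pair, where 3.68% of all genes were. At an unadjusted p under 0.05, 19 of 30 were lower, beside 9.16% of all genes. The difference was negative for 29 of the 30, Ccne1 being the exception, with a median of -0.34 beside -0.020 over all genes. It was negative for all of the 15 mitotic genes tested, with medians of -0.44 for cyclins and kinases, -0.55 for the checkpoint and anaphase group and -0.51 for the spindle group, and smaller for the MCM group at -0.22 and the clamp group at -0.14. Of these 15, Plk1, Kif20a, Birc5 and Tpx2 reached 1 FPKM in no diestrus library. They passed the filter only through the other stages, so a lower value in diestrus is weaker support for them.

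Ube2c (ENSMUSG00000001403, chr2:164769898-164778822), the E2 enzyme of the anaphase-promoting complex, was at 2.06, 0.578, 1.44, 0.764 and 1.60 FPKM in proestrus-1 to -5, at 1.47, 1.45, 2.11, 1.29 and 1.91 in estrus, at 1.28, 3.99, 1.87, 1.5 and 3.15 in metestrus and at 0.980, 1.16, 1.26, 0.952 and 0.809 in diestrus. All 5 diestrus libraries lay below all 5 of metestrus and all 5 of estrus, while proestrus overlapped the rest. At equal score diestrus was below metestrus by 0.72 (SE 0.15, limma adjusted p = 0.0168), and metestrus above proestrus by 0.64 (SE 0.15, adjusted p = 0.0427). The latter was the only call of the 30 in that pair, where 1.09% of all genes were higher. Leaving out metestrus-5 ended the call against diestrus (adjusted p = 0.0632), and leaving out any other 1 library did not. It was also lost in the 12 libraries above the gap (-0.91, 0.0577), where none of the 30 was called in this pair, in the 8 below it (-0.57, 0.925), with no filter (0.0510) and with the pair fitted on its own 10 libraries (-0.72, 0.0554). The call against proestrus was lost without any 1 of 15 libraries, with an adjusted p of 0.0091 to 0.141 over the 20.

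In the annotation, 10 of the 39 genes share exon bases with a gene on the opposite strand. Ube2c shares 592 of them with Tnnc2, troponin C of fast muscle, which lies on the other strand, and no source used here says that counting used strand. Tnnc2 was at 1109 FPKM in metestrus-3, where Ube2c was at 1.87, and at 0 in metestrus-5, where Ube2c was at 3.15. Without metestrus-3 the difference of diestrus from metestrus was -0.70 (limma adjusted p = 0.0323), and with the muscle score added to the model it was -0.71 (adjusted p = 0.0235).

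Cdc20 (ENSMUSG00000006398, chr4:118432901-118437352), the activator of the same complex, was at 2.12, 0.737, 2.16, 0.843 and 1.82 FPKM in proestrus-1 to -5, at 1.33, 0.766, 2.28, 1.01 and 2.32 in estrus, at 1.14, 3.88, 0.654, 1.45 and 2.66 in metestrus and at 0.806, 0.584, 1.42, 1.22 and 0.480 in diestrus. The stages overlapped, and metestrus-2 and metestrus-5 were the 2 highest of all. At equal score diestrus was below metestrus by 0.65 (SE 0.16, limma adjusted p = 0.0362). The call was lost without metestrus-2, -4 or -5 (adjusted p 0.0939, 0.110 and 0.102) and without diestrus-1, -2, -4 or -5 (0.105, 0.0775, 0.0769 and 0.0567). The slope on the score was 0.22 (SE 0.037, adjusted p = 0.00013).

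Ccnb2 (ENSMUSG00000032218, chr9:70407692-70421547), cyclin B2, was at 1.88, 0.579, 1.41, 0.703 and 1.95 FPKM in proestrus-1 to -5, at 1.32, 0.528, 2.52, 1.29 and 2.45 in estrus, at 1.01, 3.92, 1.08, 2.11 and 3.44 in metestrus and at 0.864, 0.683, 1.68, 1.20 and 0.708 in diestrus. Metestrus-4, which had the lowest lymphocyte score of all libraries, was at 2.11, above all diestrus libraries, while metestrus-1 and -3 lay within their range. At equal score diestrus was below metestrus by 0.72 (SE 0.19, limma adjusted p = 0.0492), and this was lost without any 1 of 15 libraries, with an adjusted p of 0.0123 to 0.144. A pseudogene, Ccnb2-ps, had a mean of 1.04 FPKM, so the level of Ccnb2 is uncertain by what reads they shared. Kif20a, a kinesin of the central spindle, was below by 0.42 (SE 0.11, adjusted p = 0.0497) and lost the call without any 1 of 12 libraries, of the 15 fits in which it was tested. Kif20a reached 1 FPKM only in proestrus-1, estrus-3, estrus-5, metestrus-2 and metestrus-5, and so passed the filter without any diestrus library. It shares 1271 exon bases with Cdc23 on the other strand, which had a mean of 4.28 FPKM.

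Just outside the threshold lay Aurka (-0.37, limma adjusted p = 0.0510), Birc5, the survivin gene (-0.45, 0.0534), Tpx2, a spindle assembly factor (-0.47, 0.0544), and Ccna2. Of these, Birc5 and Tpx2 also passed the filter without any diestrus library at 1 FPKM. At the looser filter 1 of 39 genes, Ube2c, was lower in diestrus on the log2(FPKM + 1) scale, beside 0.954% of all genes. On the log2(FPKM + 0.1) scale, a combination chosen after seeing the data, 4 of 39 were lower in diestrus, beside 0.945% of all genes, and the difference was negative for 38 of 39, with a median of -0.62. Hmmr and Ccnb1 were nearest to a call of the 9 genes added there, with adjusted p of 0.0727 and 0.0783. Without proestrus-2 and metestrus-3, 4 of 30 were lower, beside 2.34% of all genes.

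**Figure D3:**
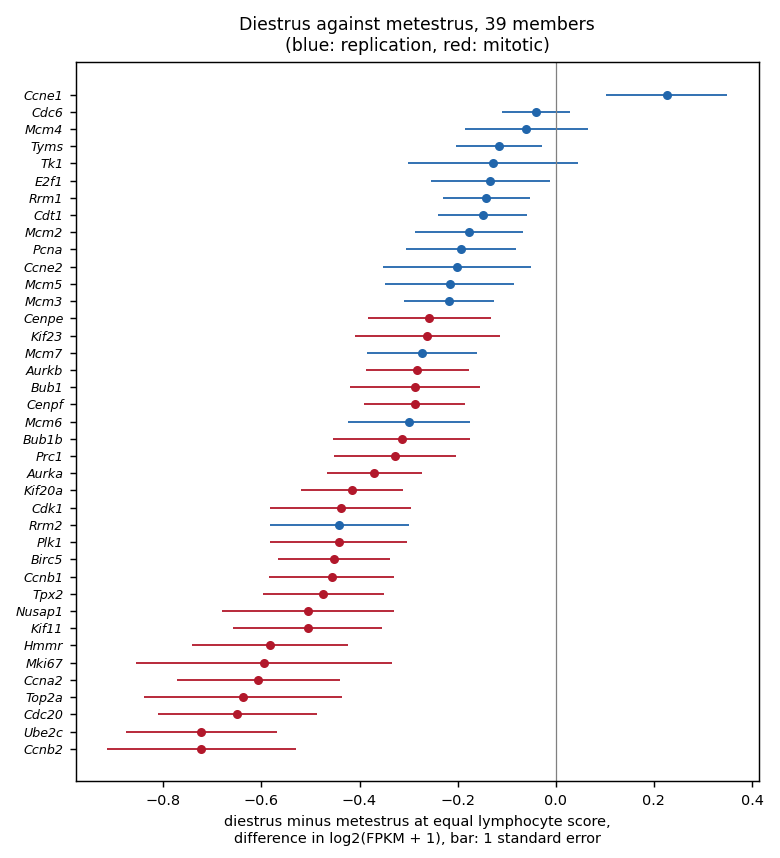
Difference of diestrus from metestrus at equal lymphocyte score, in log2(FPKM + 1), for all 39 genes in the fit over 21806 genes. Points are estimates and bars 1 standard error, with blue for replication and red for mitotic genes. Every estimate but that of Ccne1 lies below 0, and the 10 largest are mitotic.

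Outside these calls, 2 other pairs held differences short of the threshold. Metestrus against proestrus at equal score had 10 of 30 genes higher and 1 lower at an unadjusted p under 0.05, beside 8.01% and 5.26% of all genes. Diestrus minus estrus was negative for all 30, with a median of -0.31 beside -0.087 over all genes, and 19 were lower at an unadjusted p under 0.05, as many as against metestrus, beside 5.74% of all genes. The 30 include Plk1, Kif20a, Birc5 and Tpx2, which passed the filter without any diestrus library at 1 FPKM. None of the 13987 genes (0%) passed in this pair in limma, so none of the 30 did. This pair shares the diestrus libraries with the one above. Estrus minus proestrus, metestrus minus estrus and proestrus minus diestrus held no call among the 30, where 0.179%, 0.722% and 0.0143% of all genes were called, and at an unadjusted p under 0.05 there were 4 higher, 1 lower and 0 in either direction, beside 5.32%, 6.99% and 5.46% of all genes. No difference in slope among stages passed for any of the 30, at an adjusted or an unadjusted p under 0.05, where 0% and 4.35% of all genes did.

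The mean over genes shows the same per library. At the mean score, mean log2(FPKM + 1) of the 23 mitotic genes was 0.70 ± 0.068 in diestrus (SD, n = 5), 0.81 ± 0.21 in proestrus, 1.08 ± 0.13 in estrus and 1.16 ± 0.31 in metestrus. Diestrus libraries lay at 0.64 to 0.78, below all 5 of estrus at 0.92 to 1.22. Metestrus ran from 0.71, in metestrus-1, to 1.52 and overlapped diestrus only by metestrus-1. Replication genes were at 1.66 ± 0.056 in diestrus, 1.73 ± 0.12 in proestrus, 1.87 ± 0.11 in estrus and 1.82 ± 0.14 in metestrus. These levels rest on 1 straight slope per gene, though the 11 genes tested on either side of the gap had median slopes of 0.063 below and 0.42 above it. Below the gap lie 3 estrus and 2 diestrus libraries. Before the move, mitotic genes overlapped, at 0.44 to 1.03 in diestrus, 0.68 to 1.45 in estrus and 0.66 to 1.80 in metestrus. Without metestrus-1 the number of genes called in some pair of stages at equal score went from 4 to 14, where 3.39% of all genes were called, and without metestrus-5 to 0, where 1.29% were.

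**Figure D4:**
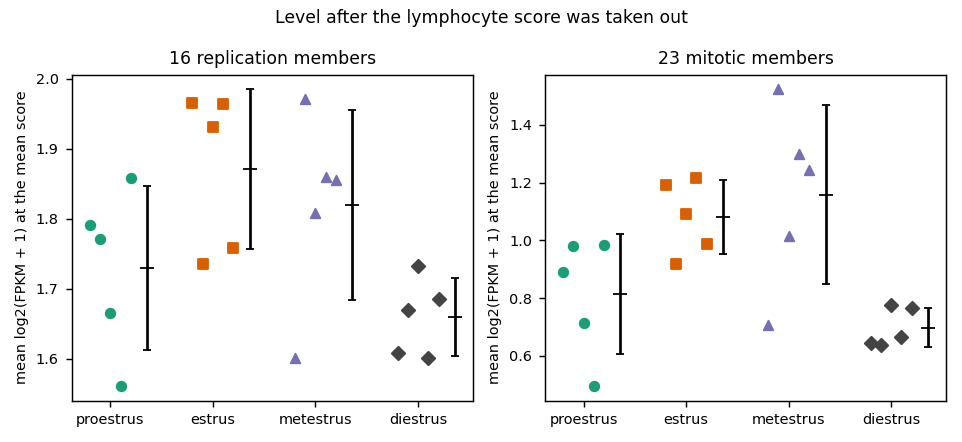
Mean log2(FPKM + 1) of 16 replication genes (left) and 23 mitotic genes (right) in each library, moved along the fitted slopes to the mean lymphocyte score. Points are libraries by stage and bars the mean and SD of 5. For mitotic genes the diestrus libraries lie at 0.64 to 0.78, under all estrus libraries and under 4 of the 5 metestrus libraries. The move uses 1 straight slope per gene. Before it, diestrus and estrus overlapped, at 0.44 to 1.03 and 0.68 to 1.45.

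The division of the variance describes how much of each gene's spread went with the score and how much with the stage, with no test. The score, added after the stage, took a median of 51.8% of a gene's variance over the 39, beside 11.4% over all genes tested, and the stage, added after the score, 23.1% beside 14.7%. The score took more than the stage in 34 of the 39 and in 26 of the 30 tested, beside 6034 of all 13987 genes tested. The exceptions among the 39 were E2f1, Ccne2, Aurka, Ube2c and Prc1. The stage has more terms in the model than the score and can take a larger share by chance. An exception is thus not by itself a gene that followed the stage, and E2f1 had its flagged value in estrus-1. For licensing and MCM genes the medians were 77.4% for the score and 9.29% for the stage, and for the clamp group 67.9% and 8.86%. For mitotic cyclins and kinases they were 42.8% and 30.2%, for the checkpoint and anaphase group 51.8% and 27.1% and for the spindle group 58.0% and 23.7%. Mcm3 had the largest part for the score, 88.1% with 6.5% for the stage, and Ube2c the largest for the stage, 53.7% with 28.9% for the score.

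**Figure D5:**
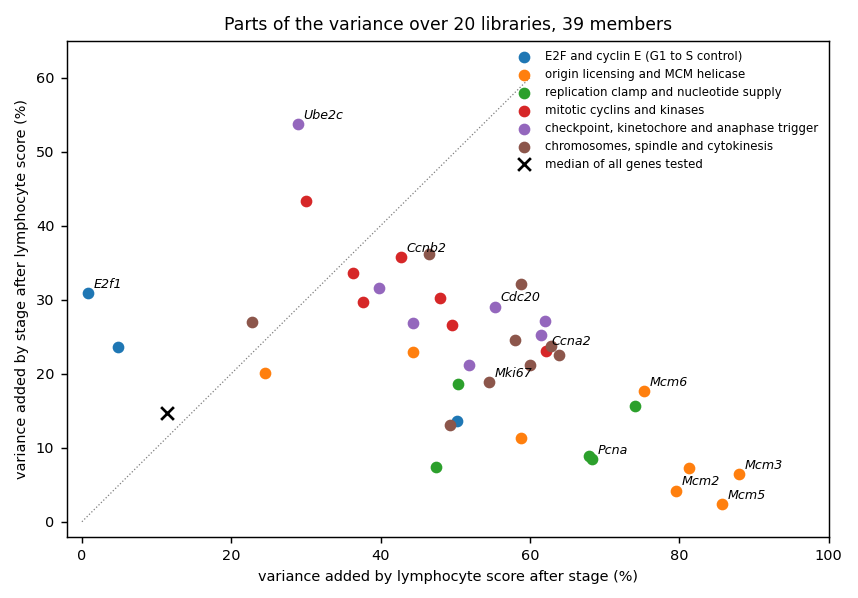
Percent of the variance of each of the 39 genes over 20 libraries that the stage adds after the lymphocyte score, against the percent that the score adds after the stage, coloured by role. The cross is the median of all genes tested and the dotted line marks equal parts. MCM genes lie at the lower right (Mcm5 at 85.8% and 2.4%), and Ube2c is the highest point at 53.7%.

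Other cell types were measured beside these differences. Macrophage genes (6, mean log2(FPKM + 1)) were at 4.61 to 5.32 in metestrus and 3.97 to 5.37 in diestrus, luminal mammary epithelium genes (7) at 4.32 to 5.71 and 4.56 to 5.30, and adipose progenitor genes (6) at 4.26 to 4.81 and 3.79 to 4.93, none at 0 in any library. With the macrophage, the luminal or the germinal centre score added to the model in turn, 1 of the 30 genes, Ube2c, was still called lower in diestrus than in metestrus, with a limma adjusted p of 0.0242, 0.0354 and 0.0447, beside 1.28%, 1.29% and 1.28% of all genes. The difference was then negative for 29, 29 and 27 of the 30, with a median of -0.31, -0.31 and -0.28. The part of these cell types in the result was not tested beyond that.

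Genes of the same processes outside the 39 were counted in the same fits, in which 19.8% of all genes rose and 9.34% fell with the score. Of 41 other replication genes, such as the GINS complex and the polymerases, 34 were tested and 16 rose with the score, with a median slope of 0.082, and none was called between stages at equal score. Gins2 and Dut had the smallest p among stages (limma adjusted p = 0.214 and 0.289). Of 46 other mitotic genes 17 were tested and 13 rose with the score, with a median slope of 0.12. None was called between stages, and Ckap2, a spindle protein, came closest, at -0.62 in diestrus against metestrus (adjusted p = 0.0501). Of 17 D cyclins, G1 kinases and pocket proteins, which act before S phase, 15 were tested, 4 rose with the score at a median slope of 0.061, and none was called between stages.

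Inhibitors of the cell cycle had calls between stages at equal score. Of 15, 14 were tested, 5 rose and 1 fell with the score, where 19.8% and 9.34% of all genes did. By the F test at equal score 2 passed, where 1.6% of all genes did, Cdkn1a (p21, limma adjusted p = 0.0186) and Gadd45g (0.0342). At equal score Cdkn1a was higher in metestrus than in estrus by 1.49 (adjusted p = 0.0186) and than in proestrus by 1.45 (0.0137), and Gadd45g was higher in metestrus than in estrus by 1.35 (0.0212). With 1 library left out, Cdkn1a lost the F call without metestrus-1, -4 or -5 (adjusted p of up to 0.0854), the call against estrus also without estrus-3 (up to 0.0831), and the call against proestrus without metestrus-5 (0.0558). Gadd45g lost the F call in 9 of 20 such fits, and the call against estrus without estrus-3, metestrus-4 or metestrus-5 (up to 0.0970). Further calls were named after their values were seen. Wee1, the kinase that holds Cdk1 inactive, was lower in diestrus than in metestrus by 1.11 (limma adjusted p = 0.0332). Cdkn2c and Gadd45a were higher in diestrus than in metestrus, by 0.63 (0.0450) and 0.76 (0.0492). Gadd45a was also lower in metestrus than in proestrus by 0.88 (0.0333), and Ccng2 was higher there by 0.48 (0.0494). These calls were lost in 6 to 16 of the 20 fits.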

How the data were processed

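The authors deposited 1 table of FPKM, made after trimming (Skewer), alignment to the mouse genome GRCm38 and counting of reads by HTSeq. StringTie 1.3.1c, STAR 2.5.3a, FastQC 0.11.5 and the builds GRCm38 and hg38 are listed in the submitters' notes on processing. The release of the annotation, the program that computed FPKM and the use of strand in counting were not given in the sources used here. Read counts were not used, and whole reads could not be recovered, since only 20.4% of low values fell within 0.1 of a whole number of steps, beside 20% by chance. No 2 libraries were alike, with at most 0.0302% equal values in the 190 pairs. Of 35841 identifiers, 35766 were found in GENCODE M21.

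FPKM were taken here to log2 with a pseudocount of 1. Genes with 1 FPKM in 5 or more of the 20 libraries entered linear models in R 4.3.3 with limma 3.58.1 (empirical Bayes, variance trend), and p-values adjusted by Benjamini-Hochberg at 0.05 over all genes. Models held the stage, the stage with the lymphocyte score, or both with their interaction. The model was tested on simulated data. Figures and promoter searches used Python 3.11.15, pandas 2.3.3 and matplotlib 3.10.9. The 39 genes, the lists and the tests were chosen with earlier results of these data known.

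Values in every library are given for the gene of highest mean FPKM in each role group, Mki67, the 3 with the smallest p among stages at equal score and the next 3 with the smallest p for the slope. Of other lists, up to 2 genes with the smallest p are named, and all further names were chosen after their values were seen. Alternatives covered pseudocounts, filters, scaling, weights, a replicate block, other scores and each library left out. Those with the score on the linear scale or squared, with filter and pseudocount at 0.1 together, or with a muscle score were chosen after seeing the data.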

Additional observations from a re-analysis of the deposited data

Results flagged for a closer look

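The level of E2f1 in estrus-1 was 3.31 FPKM, far above the other estrus libraries, of which the next was at 2.09. The lymphocyte score of proestrus-2 was 0.25, far below the other proestrus libraries, of which the next was at 2.94. This library came from another portion of the pad. Both were found by comparing the gap of the extreme library to its neighbour with the range of its group of 5, in 52 groups of values, and chance marks about 1 in 20 groups.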

How the results depend on the processing

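The rise with the lymphocyte score held in 24 to 28 genes when any 1 library was left out, beside 16% to 22.5% of all genes. Under the replicate block it held in 26, beside 17.4% of all genes. It went to 0 with the germinal centre score added and to 0 in the 8 libraries below the gap, beside 0.772% and 0% of all genes. Slopes changed sign with the germinal centre score for Mcm6 (-0.0499), Ccna2 (-0.024), Ube2c (-0.042), Mki67 (-0.25), Cdc20 (-0.055) and Ccnb2 (-0.058), and below the gap for Mcm6 (-0.055) and Mki67 (-0.14). The cause was not tested.

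Calls among stages at equal score were few and moved easily. Shares over all genes are not given beside the counts in this paragraph. The counts therefore show only how far the number moved with the setting, and not that these genes stood out from others. With 1 library left out, the F test called 0 to 2 genes and any pair of stages 0 to 14, and the other counts (no covariate, falling slopes, interaction) stayed at 0 to 0. Array weights gave 17 by the F test, 19 in some pair and, with no covariate, 2 in some pair. The F test called 0 with a pseudocount of 0.01, no filter, a filter of 0.1 FPKM (also with pseudocount 0.1 or the linear score), equal FPKM totals, without proestrus-2 and metestrus-3, with the score from B cell or vessel and stroma genes, with a germinal centre, luminal, macrophage or muscle score added, and on either side of the gap. For some pair of stages (4 in the main fit) the count was 8 with median-ratio factors or the linear score, 7 without the variance trend, 2 with pseudocount 0.1, B cell genes or the muscle score, 1 with pseudocount 0.01, filter 0.1, equal totals, vessel and stroma genes or the germinal centre, luminal or macrophage score, and 0 with no filter, below the gap and with each pair fitted on its own 10 libraries.

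Replicate numbers are shared by the stages but did not pair the mice. The correlation of deviations in 30 same-numbered pairs had a median of -0.0089, and 10 of 30 were over 0.1. In the 120 pairs of different numbers the median was 0.0151, and 56 of 120 were over 0.1. With the replicate block the F test called 0 genes and some pair of stages 1, Ube2c (diestrus against metestrus, limma adjusted p = 0.0343), with shares over all genes not given. Without read counts, the precision of values under 1 FPKM was not estimated.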
